A study of Mus musculus with 20 samples.

Results

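The Nrf2 antioxidant response genes are 10 genes of the 53028 in the table: Nfe2l2, Keap1, Gclc, Gclm, Nqo1, Srxn1, Hmox1, Gsr, G6pdx and Abcc4. They were taken by name, with the symbol of each matched to its Ensembl identifier, and all 10 were tested in every comparison. Nfe2l2 encodes Nrf2, a transcription factor that Keap1 holds in the cytoplasm and delivers to a ubiquitin ligase. When oxidants or electrophiles modify Keap1, Nrf2 accumulates, pairs with small Maf proteins and binds antioxidant response elements in front of its target genes. In the liver this pathway is known for maintaining glutathione, the main cellular thiol, and for detoxifying reactive compounds.

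The question was whether knockdown of SNORA73, a box H/ACA small nucleolar RNA, changes the transcriptome or the translatome of the liver. Male C57BL/6J mice on standard chow received intraperitoneal locked nucleic acids (LNAs), which are chemically stabilized antisense oligomers. The GFP LNA group (mice 1, 2, 3, 8 and 9) received a control oligomer against a sequence that mice lack, and the SNORA73 LNA group (mice 4, 6, 10, 11 and 12) an oligomer against the snoRNA. The dose was 3 mg/kg, given 3 times, with a day between, to mice of 8 weeks, and livers were taken 2 days after the last injection. The methods for liver ribosomes instead give an age of 10 weeks, and state that all mice also received cycloheximide by tail vein before death. Both groups are of the same strain and sex, and no uninjected mice were analysed here. The sample labels name the target Snora37, whereas the design text and the methods name SNORA73. For the liver work after its first test of the oligomers, the study names the one it calls SNORA73-2. From each liver, total (input) RNA and RNA of the polysome fractions were sequenced after poly(A) selection, giving 4 groups of 5 libraries. The study purified them differently, with a DNase step on a column for input RNA, and precipitation and heparinase for polysome RNA. Fraction and purification therefore cannot be told apart in comparisons of polysome with total RNA. Values below are CPM, the estimated count of a gene scaled to the size of its library, with library sizes adjusted by TMM over all 20 libraries, with GFP LNA values in the mouse order 1, 2, 3, 8, 9 and SNORA73 LNA values in the order 4, 6, 10, 11, 12.

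Libraries held 14852951 to 42023390 counts, and SNORA73 itself could not be read from them, since Snora73a reached at most 2 counts and Snora73b at most 4 in any library. Total RNA libraries had a median of 31996106 counts in GFP LNA mice and 22543046 in SNORA73 LNA mice. Their TMM factors did not overlap, at 1.011 to 1.057 and 0.877 to 0.982. The hepatocyte markers Alb, Ttr, Apoa1, Serpina1c and Hnf4a were detected in every library, at a summed level of 34280 CPM or more. In total RNA, mice 9 and 10 lay farthest from the rest of their groups, with root mean square log2 distances of 0.425 and 0.501 against 0.254 to 0.368 for the other mice. Summed sinusoidal endothelial markers (5 of 5 detected in every library) did not overlap in polysome RNA, at 77.3 to 89.4 CPM in GFP LNA mice and 95.5 to 107.7 CPM in SNORA73 LNA mice. In total RNA these sums were 94.6 to 119.2 and 117.1 to 129.2 CPM. Stab2 alone of the 5 passed the test in total RNA (log2 fold change 1.06, edgeR FDR = 0.0498), where 0.0303% of all genes were called. Stab2 did not pass in polysome RNA (1.005, edgeR FDR = 0.0857), where 3.23% of all genes had non-overlapping groups. Lyve1 alone of the 5 was lower in total RNA (-0.10, not called). The part of the endothelial cells in the results on the LNAs was not tested. In such bulk samples, fewer cells of a type and less RNA per cell cannot be told apart.

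The regulators are Nfe2l2 (ENSMUSG00000015839, chr2:75675513-75704663 in GRCm38.p6) and Keap1 (ENSMUSG00000003308, chr9:21229730-21239332). Glutathione synthesis is represented by Gclc (ENSMUSG00000032350, chr9:77754535-77794489) and Gclm (ENSMUSG00000028124, chr3:122245487-122267215), the catalytic and modifier subunits of glutamate-cysteine ligase. Gsr (ENSMUSG00000031584, chr8:33653238-33698162) reduces oxidized glutathione at the expense of NADPH, and G6pdx (ENSMUSG00000031400, chrX:74409483-74428880) makes NADPH in the pentose phosphate pathway. Nqo1 (ENSMUSG00000003849, chr8:107388225-107403205) reduces quinones, Srxn1 (ENSMUSG00000032802, chr2:152105524-152111376) repairs overoxidized peroxiredoxins, and Hmox1 (ENSMUSG00000005413, chr8:75093618-75100593) degrades heme. Abcc4 (ENSMUSG00000032849, chr14:118482692-118707856) is an export pump of the plasma membrane. Positions are those of the whole gene in RefSeq.

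RefSeq promoter sequences (GRCm38.p6, from 250 bases before the start to 50 bases after it) were matched for 7 of the 10 genes, with 2 alternative starts for Abcc4. They are shown because the antioxidant response element is the site through which Nrf2 acts on its targets. Its core, TGACNNNGC, was searched on both strands, and 6 of the 8 promoters, from 5 genes, held a match. Over all 32851 promoters of this length, 12.4% held a match. Of 95 promoters from 71 genes of the related lists described below, 16 held a match. Binding of Nrf2 to any of these sequences was not measured. Each line below is written 5′ to 3′ on the strand of the match, with the core in capitals and 10 bases on each side.
Nfe2l2, chr2:75704885-75704913: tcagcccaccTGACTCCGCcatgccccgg
Gclm, chr3:122245413-122245441: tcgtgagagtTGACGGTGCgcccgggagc
Srxn1, chr2:152105542-152105570: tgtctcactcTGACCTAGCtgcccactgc
G6pdx, chrX:74428919-74428947: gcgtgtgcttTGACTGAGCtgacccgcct
Abcc4, first start, chr14:118706226-118706254: cggcccgcccTGACCCCGCctctcggggc
Abcc4, second start, chr14:118676936-118676964: aataatctcgTGACTCTGCcgtggtggat
The Nfe2l2 and second Abcc4 matches lay on the strand of the gene and the others on the opposite strand. The Srxn1 match lay after the transcription start, and the others before it. The windows of Keap1 and Nqo1 held no match to these letters. Gclc, Hmox1 and Gsr were not analysed here.

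In total RNA, no Nrf2 gene passed the test between the SNORA73 and GFP LNA mice, and the largest differences were lower values of Gclc, Nqo1 and Nfe2l2. Of the 10 genes, 0 were called at an FDR under 0.05 by edgeR's quasi-likelihood test, and likewise 0 by limma-voom and by DESeq2. Among all 13195 genes tested, 0.0303% were called by edgeR, 0.0379% by limma-voom and 0.568% by DESeq2. At an unadjusted p under 0.05 there were 2 of the 10 (Gclc and Nfe2l2), against 8.65% of all genes. Fold changes lay below 0 for 8 of the 10, against 48.3% of all genes, with a median of -0.18 on the log2 scale against 0.0070. With library totals in place of TMM, all 10 lay below 0 (Keap1 and Abcc4 changed sign), but the median of all genes then shifted to -0.14. No gene of the 10 had non-overlapping groups, compared with 1.84% of all genes.

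Gclc showed the largest of these differences. In total RNA of the GFP LNA mice, Gclc was measured at 291, 296, 242, 273 and 169 CPM, and in the SNORA73 LNA mice at 208, 162, 150, 187 and 159 CPM. GFP LNA mouse 9 was within the range of the SNORA73 LNA mice, and the other 4 GFP LNA mice were above all of them. The means were 254 ± 52.4 (SD, n = 5) and 173 ± 24.1 CPM. The fold change was -0.55 on the log2 scale (SE 0.153, 95% confidence interval -0.89 to -0.22), or 68.2% of the GFP LNA level, with an edgeR FDR of 0.357. Without mice 9 and 10, the pair farthest from their groups in total RNA, it was -0.62 with an edgeR FDR of 0.0389. Gclc was then called as lower, while 0.745% of all genes were called in either direction. Without GFP LNA mouse 9 alone the fold change was -0.68 with an edgeR FDR of 0.0382, where 0.45% of all genes were called. With any other single mouse left out, mouse 10 among them, Gclc was not called. Over the single omissions its fold change ranged from -0.68 to -0.50 and its edgeR FDR reached 0.640. Mouse 9 also had the lowest summed hepatocyte markers in total RNA, 34280 CPM against 52920 to 61490 CPM in the other GFP LNA mice, and mouse 10 the lowest of its group, 38650 CPM against 44260 to 63120 CPM. Their part in the Gclc difference was not tested. In polysome RNA, Gclc stood at 166, 175, 134, 108 and 86.2 CPM in the GFP LNA mice and at 109, 125, 68.7, 97.8 and 66.1 CPM in the SNORA73 LNA mice. These groups overlapped more widely, at a fold change of -0.53 (SE 0.225, edgeR FDR = 0.335).

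Gclm, the partner subunit, differed less. Its total RNA values were 162, 211, 154, 176 and 131 CPM in GFP LNA mice and 150, 143, 150, 156 and 162 CPM in SNORA73 LNA mice. The SNORA73 LNA mice lay close together inside the range of the controls, and the fold change was -0.13 (interval -0.39 to 0.12, edgeR FDR = 0.81). The ratio of Gclc to Gclm counts does not depend on library scaling. It was 1.52 ± 0.194 in GFP LNA mice and 1.14 ± 0.165 in SNORA73 LNA mice in total RNA (n = 5 each), with ranges of 1.29 to 1.80 and 0.986 to 1.39 that overlapped. In polysome RNA the ratio was 1.32 ± 0.272 and 1.04 ± 0.264. These ratios are descriptions without a test.

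Both regulators stayed short of the threshold, with Nfe2l2 lower and Keap1 higher in the point estimates. Nfe2l2 was measured in total RNA at 31.3, 41.9, 29.9, 42.7 and 42.9 CPM in GFP LNA mice and at 32.7, 27.7, 28.0, 31.0 and 31.1 CPM in SNORA73 LNA mice. GFP LNA mice 2, 8 and 9 were above every SNORA73 LNA mouse, and mice 1 and 3 were within their range. The fold change was -0.33 (SE 0.121, interval -0.59 to -0.064) with an edgeR FDR of 0.477. Keap1 was at 44.2, 41.9, 43.7, 46.0 and 47.6 CPM against 44.4, 49.4, 48.3, 58.1 and 42.9 CPM, a fold change of 0.12 (interval -0.086 to 0.33, edgeR FDR = 0.783). SNORA73 LNA mouse 11 held the highest Keap1 level in both RNAs. In polysome RNA the Nfe2l2 fold change was -0.40 (interval -0.81 to 0.010, edgeR FDR = 0.383) and that of Keap1 0.31 (interval -0.044 to 0.67, edgeR FDR = 0.435). Counts of Keap1 per count of Nfe2l2 averaged 1.21 ± 0.209 and 1.62 ± 0.240 in total RNA, and 2.27 ± 0.593 and 3.75 ± 1.41 in polysome RNA, for GFP and SNORA73 LNA mice.

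**Figure D1:**
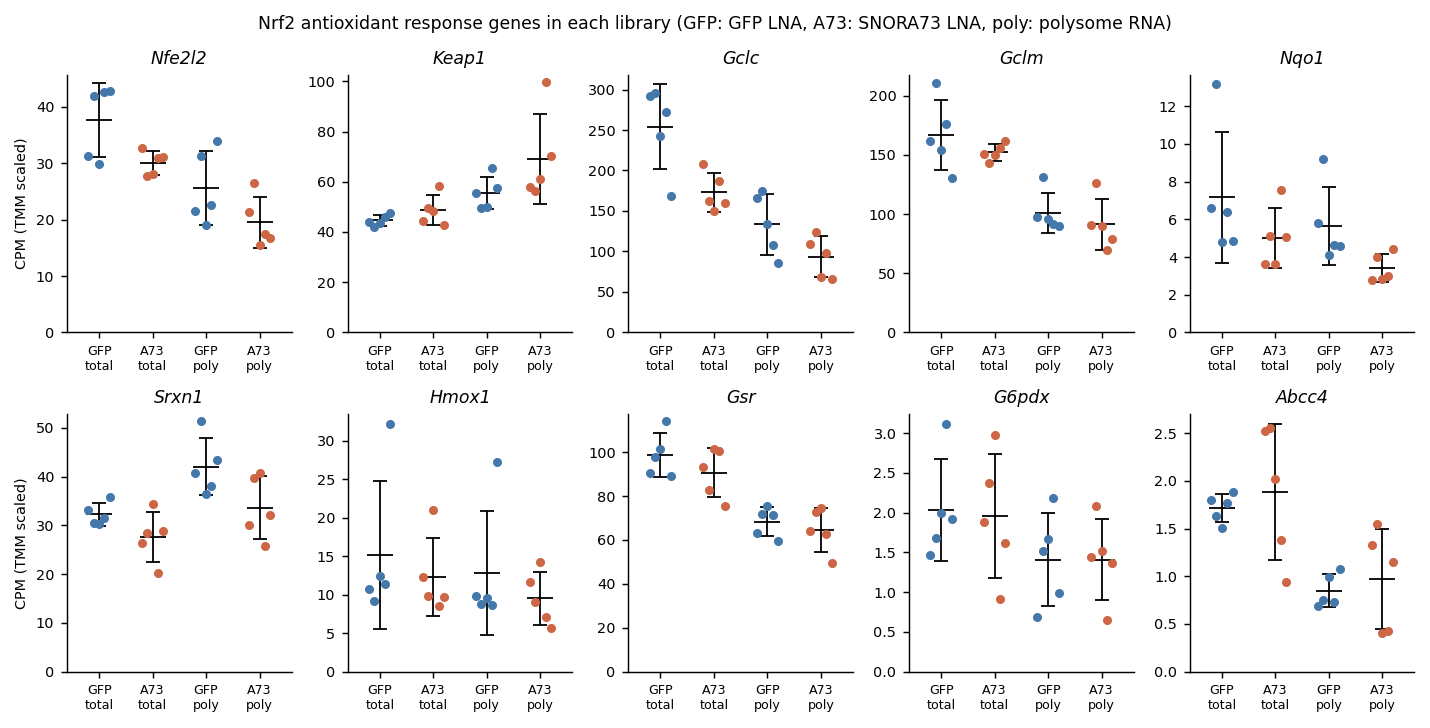
Level of each of the 10 genes in each library, in CPM on linear axes that start at 0, by LNA and RNA; points are mice in ascending mouse number and bars give the mean ± SD of 5 mice. Gclc in total RNA is at 242 CPM or more in 4 of 5 GFP LNA mice and at 208 CPM or less in all SNORA73 LNA mice, and a single GFP LNA mouse stands far above the rest for Hmox1 in both RNAs.

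Polysome RNA gave the same count of calls between the LNAs. Of the 10 genes, 0 passed the edgeR test, and 0 passed by limma-voom or DESeq2. Over the 13060 genes tested, edgeR and limma-voom each called 0.0153% and DESeq2 2.15%. Below an unadjusted p of 0.05 were 3 of the 10, Nqo1, Gclc and Srxn1, against 13.4% of all genes. The fold changes lay below 0 for 7 genes, against 51.4% of all genes, with a median of -0.24 against -0.011. Again the groups of all 10 genes overlapped, whereas 3.23% of all genes had groups that did not.

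Nqo1, the quinone reductase, had the lowest point estimate in polysomes. Its polysome values were 5.79, 9.21, 4.09, 4.63 and 4.59 CPM in GFP LNA mice and 2.78, 4.01, 2.85, 3.01 and 4.44 CPM in SNORA73 LNA mice. Of the SNORA73 LNA mice only mouse 12 lay within the control range, and the others lay below the lowest control. The fold change was -0.73 (SE 0.244, interval -1.26 to -0.21) with an edgeR FDR of 0.238. In total RNA the values were 6.59, 13.2, 4.78, 6.40 and 4.86 CPM against 3.65, 5.11, 3.64, 7.56 and 5.05 CPM, at a fold change of -0.52 (interval -1.16 to 0.11, edgeR FDR = 0.672). GFP LNA mouse 2 had the highest Nqo1 level in both RNAs, and without it the total RNA fold change was -0.18. Nqo1 rested on 48 to 532 counts per library.

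Srxn1, the sulfiredoxin, was measured in polysomes at 40.7, 51.3, 36.4, 38.2 and 43.5 CPM in GFP LNA mice and at 30.2, 39.7, 40.7, 25.7 and 32.1 CPM in SNORA73 LNA mice. Mice 4, 11 and 12 were below all controls and mice 6 and 10 among them, for a fold change of -0.32 (interval -0.64 to -0.0040, edgeR FDR = 0.364). Its total RNA fold change was -0.22 (interval -0.50 to 0.050, edgeR FDR = 0.675).

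For Hmox1, the same mouse of each group held the highest level in both RNAs. GFP LNA mouse 9 held 32.1 CPM in total RNA and 27.2 CPM in polysome RNA, against 9.13 to 12.4 and 8.69 to 9.80 CPM in the other GFP LNA mice. SNORA73 LNA mouse 10 held 21.0 and 14.2 CPM, against 8.48 to 12.2 and 5.66 to 11.7 CPM in the rest of its group. The fold change between the LNAs was -0.31 in total RNA (interval -1.08 to 0.47, edgeR FDR = 0.863), and it became 0.16 without mouse 9. In polysome RNA it was -0.43 (edgeR FDR = 0.634), and 0.052 without mouse 9. Hmox1 is strongly expressed by macrophages that recycle heme, and summed Kupffer cell and macrophage markers (7 of 7 detected in every library) were highest in these same mice in both RNAs. They reached 218 and 234 CPM in total RNA of mice 9 and 10, against 138 to 209 and 128 to 167 CPM in the other mice of each group. GFP LNA mouse 3 was next in its group for both in total RNA, with 209 CPM of these markers but 12.4 CPM of Hmox1. Summed blood leukocyte markers were also highest in mice 9 and 10 of their groups. They reached 13.3 and 19.0 CPM in total RNA and 15.8 and 32.1 CPM in polysome RNA. Mouse 9, but not mouse 10, was highest of its group for sinusoidal endothelial and stellate cell markers in both RNAs. The part of any of these cells in the Hmox1 level was not tested.

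The remaining genes differed little between the LNAs. Gsr was at 90.5, 98.0, 101.6, 114 and 89.1 CPM in total RNA of GFP LNA mice and at 93.1, 82.9, 101.3, 100.3 and 75.6 CPM in SNORA73 LNA mice, a fold change of -0.12 (interval -0.36 to 0.12, edgeR FDR = 0.812). In polysome RNA Gsr had a fold change of -0.084 (interval -0.37 to 0.21). G6pdx, the X-linked glucose-6-phosphate dehydrogenase, was low, at 0.920 to 3.12 CPM in total RNA and 0.646 to 2.19 CPM in polysome RNA. Its fold changes of -0.044 and 0.0025 had intervals of -0.68 to 0.59 and -0.78 to 0.79. No reads were assigned to its autosomal copy G6pd2 in any library. Abcc4 was as low, at 0.937 to 2.55 CPM in total RNA, with fold changes of 0.13 (interval -0.43 to 0.69) and 0.18 (interval -0.70 to 1.06). For G6pdx and Abcc4, which rested on 8 to 87 counts per library, neither direction is fixed by these data.

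**Figure D2:**
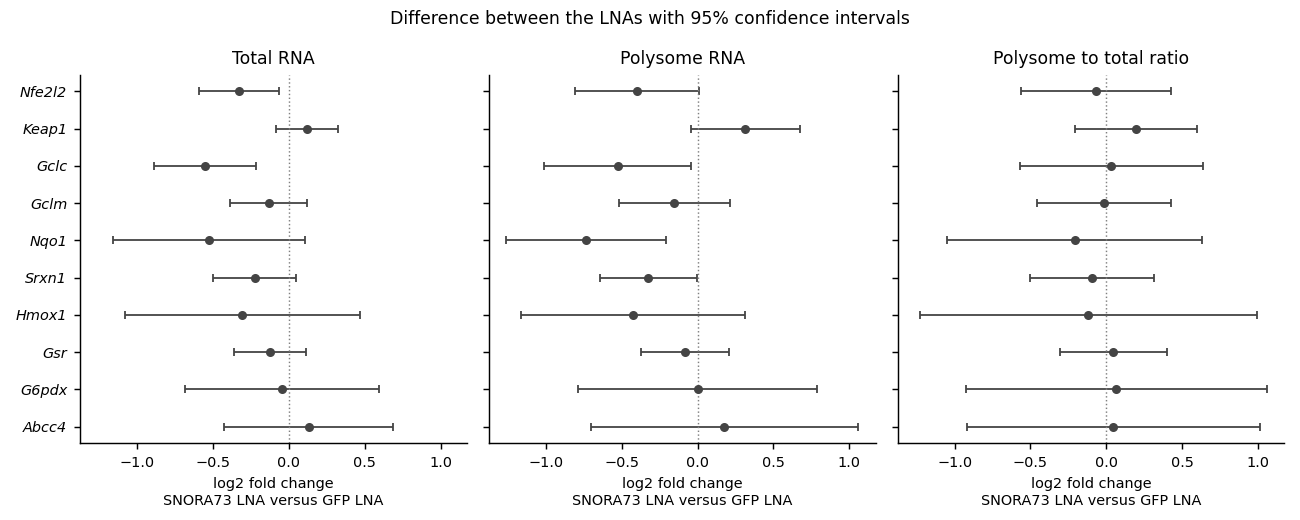
Log2 fold change of each gene between SNORA73 and GFP LNA mice in total RNA, in polysome RNA, and in the polysome to total ratio, with 95% confidence intervals from edgeR (5 mice per group). In total RNA the intervals of Gclc and Nfe2l2 lie below 0, in polysome RNA those of Gclc, Nqo1 and Srxn1, and none of the intervals of the ratio excludes 0.

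Polysome RNA was then compared with total RNA of the same group, and here 7 of the 10 Nrf2 genes were called in GFP LNA mice and 5 in SNORA73 LNA mice. A log2 ratio under 0 means that the mRNA took a smaller share of polysome RNA than of total RNA, relative to the average mRNA. In the GFP LNA mice the called genes were 5 lower (Abcc4, Gclc, Gclm, Nfe2l2 and Gsr) and 2 higher (Srxn1 and Keap1). Calls were common in this comparison, at 48.7% of 13283 genes, with 24% lower and 24.7% higher. The median of the 10 genes was -0.54 on the log2 scale, against 0.025 for all genes. Non-overlapping groups were found for Keap1, Srxn1, Gsr and Abcc4, 4 of the 10, against 36.1% of all genes. With the mouse as a replicate block all 10 were called, as Nqo1 (-0.31, edgeR FDR = 0.0407), Hmox1 (-0.25, FDR = 0.00811) and G6pdx (-0.57, FDR = 0.0231) were added as lower, and 63% of all genes were called.

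In the SNORA73 LNA mice 5 of the 10 genes were called, with Gclc, Gclm, Nfe2l2 and Gsr lower and Keap1 higher. Of 13063 genes 33% were called, 15.8% lower and 17.2% higher. The same 4 lower genes had polysome values below all total RNA values, as had 11.7% of all genes, and the median of the 10 was -0.52 against 0.027. With the mouse as a block 9 of the 10 were called, all but G6pdx (-0.46, edgeR FDR = 0.144), against 46.2% of all genes. Without mouse 4, 3 of the 10 and 23.2% of all genes were called, since Keap1 (edgeR FDR = 0.0744) and Gsr (0.0762) were lost. Keap1 was also not called without mouse 10 (FDR = 0.0602) or mouse 12 (0.137), and Gsr without mouse 11 (0.0605).

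Both subunits of glutamate-cysteine ligase fell well short of their total RNA share in polysomes. The log2 ratio of Gclc was -0.81, -0.76, -0.86, -1.33 and -0.97 in GFP LNA mice and -0.93, -0.38, -1.12, -0.94 and -1.27 in SNORA73 LNA mice. It was below 0 in 10 of 10 mice, with a mean of -0.94 ± 0.272 (SD, n = 10). In the fits the fold changes were -0.94 (SE 0.208, edgeR FDR = 0.0026) and -0.89 (SE 0.189, edgeR FDR = 0.0036), so that the polysome level was 52.2% and 54.0% of the total RNA level. For Gclm the ratio was -0.73, -0.69, -0.69, -0.95 and -0.55 in GFP LNA mice and -0.73, -0.18, -0.73, -1.16 and -1.04 in SNORA73 LNA mice, also below 0 in all 10. The corresponding fold changes of Gclm were -0.73 (SE 0.145, edgeR FDR = 0.0012) and -0.74 (SE 0.156, edgeR FDR = 0.0036).

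Nfe2l2 and Keap1 lay on opposite sides of 0 in every mouse. Nfe2l2 had ratios of -0.54, -0.42, -0.65, -0.92 and -0.33 in GFP LNA mice and of -0.62, -0.066, -0.85, -0.83 and -0.89 in SNORA73 LNA mice. Those of Keap1 were 0.33, 0.25, 0.19, 0.51 and 0.27, and 0.39, 0.19, 0.34, 0.78 and 0.72. Thus the mRNA of the transcription factor was underrepresented and that of its inhibitor overrepresented in polysomes of all 10 livers. The fold changes of Nfe2l2 were -0.57 (SE 0.174, edgeR FDR = 0.017) and -0.62 (SE 0.150, edgeR FDR = 0.0074), but without GFP LNA mouse 8 that of the GFP LNA mice was not called (-0.48, FDR = 0.0878). Those of Keap1 were 0.30 (SE 0.0879, edgeR FDR = 0.013) and 0.51 (SE 0.167, edgeR FDR = 0.032). In a single fit of all 20 libraries the Keap1 difference of the GFP LNA mice was not called (0.31, FDR = 0.0692), nor was it without the filter on low counts (0.27, FDR = 0.059). Without that filter the Keap1 difference of the SNORA73 LNA mice was not called either (0.47, edgeR FDR = 0.0606).

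Gsr was lower in polysomes, at ratios of -0.43 to -0.68 in GFP LNA mice and -0.19 to -0.68 in SNORA73 LNA mice. Its fold changes were -0.54 (SE 0.100, edgeR FDR = 0.00079) and -0.48 (SE 0.141, edgeR FDR = 0.019). Srxn1 was the only target gene of the list above 0, in 10 of 10 mice, with ratios of 0.29, 0.75, 0.26, 0.28 and 0.28 in GFP LNA mice and 0.19, 0.48, 0.24, 0.35 and 0.16 in SNORA73 LNA mice. Its fold change was 0.37 in GFP LNA mice (SE 0.100, edgeR FDR = 0.0089) and 0.29 in SNORA73 LNA mice (SE 0.166, edgeR FDR = 0.201). The second of these was called with the mouse as a block (0.29, FDR = 0.0312).

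Nqo1, Hmox1 and G6pdx had smaller or more variable ratios, below 0 in 10 of 10 mice. Their means over the 10 mice were -0.41 ± 0.351, -0.30 ± 0.235 and -0.53 ± 0.355, and without the block none was called in either group, except Nqo1 in SNORA73 LNA mice with the stricter filter of a CPM above 1 in every library (-0.62, edgeR FDR = 0.0477). Mouse 11 stood at -1.33 for Nqo1, against -0.081 to -0.52 in the other 9 mice. Abcc4 was called in the GFP LNA mice (-1.02, SE 0.192, edgeR FDR = 0.00091), which ranged from -1.39 to -0.60. In the SNORA73 LNA mice it ranged from -2.33 to 0.29, and the same size of difference was not called (-0.96, SE 0.421, edgeR FDR = 0.0994). It was called with the mouse as a block (-1.01, edgeR FDR = 0.0394) and in 1 fit of all 20 libraries (-0.96, FDR = 0.0287). The single positive value, from mouse 12, rested on 16 counts in polysome and 26 in total RNA.

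Mouse 6 had the weakest ratios of the 10 mice for Nfe2l2, Keap1, Gclc, Gclm and Gsr. Over all 13795 genes its ratios were also compressed, with a slope of 0.541 on the mean of the other mice, against 0.807 to 1.21 for the other 9 mice. The part of this library in the values of the 5 genes was not tested.

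**Figure D3:**
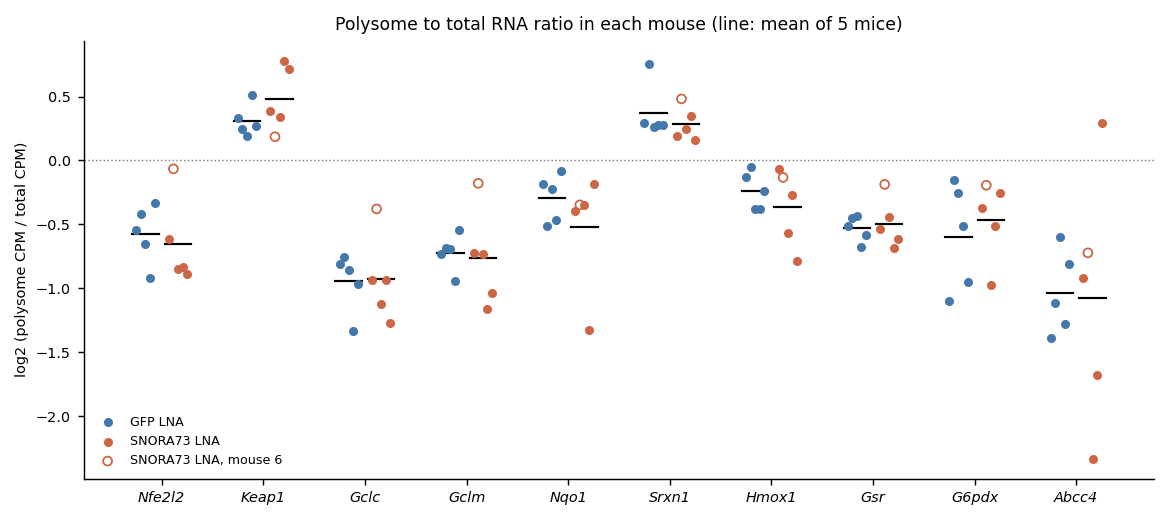
Log2 ratio of polysome CPM to total CPM in each mouse for the 10 genes, with GFP LNA mice left and SNORA73 LNA mice right of each label and a line at each mean of 5 mice. All 10 mice are above 0 for Keap1 and Srxn1 and below 0 for the other genes, except 1 mouse for Abcc4, and mouse 6 (open circle) is nearest 0 for Nfe2l2, Gclc, Gclm and Gsr.

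No difference between the LNAs in these ratios was detectable with 5 mice per group. The change in the polysome to total ratio was tested directly, by an interaction term in a fit of all 20 libraries. Of the 10 genes 0 were called by edgeR, with or without the mouse as a block, and 0 by limma-voom or DESeq2. Of all 13795 genes 0.00725% were called by edgeR, 0% by limma-voom and 0.0507% by DESeq2. An unadjusted p under 0.05 was found for 0 of the 10 and for 2.91% of all genes. The difference for Gclc was 0.033 on the log2 scale (interval -0.57 to 0.63) and that for Gclm -0.015 (interval -0.45 to 0.42). Keap1 had a difference of 0.19 (interval -0.21 to 0.60) and Nfe2l2 of -0.069 (interval -0.56 to 0.42). The narrowest interval was that of Gsr, at -0.31 to 0.40, and those of Hmox1, G6pdx, Abcc4 and Nqo1 reached beyond 1 in at least one direction. With the mouse as a block the Gclc interval was -0.32 to 0.36. Those of Hmox1 (-0.43 to 0.19), Nqo1 (-0.69 to 0.24), G6pdx (-0.50 to 0.70) and Abcc4 (-0.88 to 0.89) then stayed within 1 in both directions.

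Beside the 10 genes, 81 genes in 10 related lists were examined, among them targets of the receptors CAR and AhR. These 81 genes gave 0 calls between the LNAs in total RNA (79 tested), in polysome RNA (80 tested) and in the change of the ratio. Below an unadjusted p of 0.05 in polysome RNA were 4 of 10 glutathione S-transferases and 2 of 10 Nrf2 partners and regulators. So were 2 of 7 heme and iron genes and 1 of 10 thioredoxins and peroxiredoxins, beside the 13.4% of all genes. The other lists held none, so the lists named here are those with such genes. The 2 partners, Btrc (-0.45) and Gsk3b (0.44), differed in opposite directions. Between polysome and total RNA of GFP LNA mice, 46 of 80 were called, 30 higher and 16 lower, and in SNORA73 LNA mice 34 of 79, 21 higher and 13 lower. These are 57.5% and 43.0%, beside the 48.7% and 33% of all genes given above.

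The counts by list that follow stand beside 24.7% of all genes called higher and 24% lower in GFP LNA mice, and 17.2% and 15.8% in SNORA73 LNA mice. The values given for single genes are those of the GFP LNA mice. Of the thioredoxins and peroxiredoxins, the second thiol system, 8 of 10 were higher and 2 lower in GFP LNA mice, and 5 were higher and 2 lower in SNORA73 LNA mice. Txn1 (cytosolic thioredoxin, 1.27, edgeR FDR = 7.7e-07) and Txn2 (mitochondrial thioredoxin, 0.73, FDR = 1.3e-05) were higher, and Txnrd1 (thioredoxin reductase, -0.62, FDR = 8.7e-05) and Prdx3 (-0.29, FDR = 0.024) were lower. Among genes of glutathione synthesis and use, 4 of 8 were higher and 1 lower in each group of mice, with the glutathione peroxidases Gpx1 (1.09, edgeR FDR = 2.1e-05) and Gpx4 (1.24, FDR = 5.7e-05) against Chac2 (-0.88, FDR = 0.00021), which cleaves glutathione. Of 10 partners and regulators of Nrf2, 4 were higher and 3 lower in GFP LNA mice, and 3 were higher and 2 lower in SNORA73 LNA mice. Rbx1 (0.71, edgeR FDR = 6.8e-05), the RING subunit of the ligase that Keap1 recruits, and the related factor Nfe2l1 (0.79, FDR = 0.00032) were higher. Bach1 (-1.27, edgeR FDR = 1.2e-05), a repressor at antioxidant response elements, and Cul3 (-0.51, FDR = 0.00085), the scaffold of that ligase, were lower.

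Of 9 NADPH-producing enzymes besides G6pdx, 4 were higher and 3 lower in GFP LNA mice, and 3 were higher and 3 lower in SNORA73 LNA mice. The smallest FDR in each direction belonged to Pgls (1.33, edgeR FDR = 1.1e-06), the next enzyme after G6pdx, and Idh1 (-0.58, FDR = 0.00051). Of 7 heme and iron genes, 3 were higher and 4 lower in GFP LNA mice, and 3 were higher and 3 lower in SNORA73 LNA mice, with the constitutive heme oxygenase Hmox2 (0.69, edgeR FDR = 1.1e-05) higher and ferritin heavy chain Fth1 (-0.84, FDR = 0.00019) lower. Sod1 (1.14, edgeR FDR = 3.7e-06) was the 1 of 4 superoxide dismutases and catalase that was higher, in both groups of mice. Of 10 glutathione S-transferases, 3 were higher in GFP LNA mice and 1 in SNORA73 LNA mice, among them Gstp1 in both (1.09, edgeR FDR = 3.7e-05), although reads shared among the closely related copies make their counts uncertain. Of the other detoxification targets, 3 of 10 were higher and 1 lower in GFP LNA mice (Ugdh, -0.75, edgeR FDR = 0.00017), and 1 of 9 was higher and 1 lower in SNORA73 LNA mice. Of 6 export pumps related to Abcc4, 1 was lower in GFP LNA mice (Abcc2, -0.30, edgeR FDR = 0.029) and 0 were called in SNORA73 LNA mice. Of 6 CAR and AhR targets, 1 was lower in GFP LNA mice (Cyp3a11, -0.40, edgeR FDR = 0.030) and 1 in SNORA73 LNA mice (Tiparp, -0.59).

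**Figure D4:**
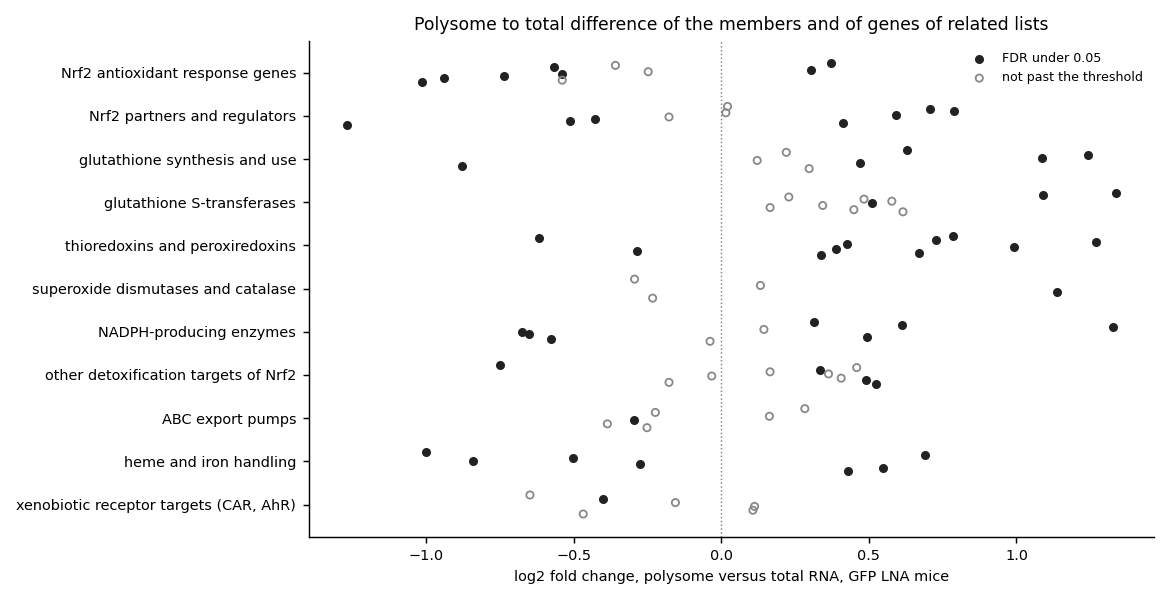
Log2 fold change between polysome and total RNA of GFP LNA mice for each of the 10 Nrf2 genes (top row) and for the tested genes of 10 related lists; filled points have an edgeR FDR under 0.05. Of the top row 5 filled points are below 0 and 2 above, whereas 8 of the 10 thioredoxins and peroxiredoxins are filled and above 0.

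The pattern of Gclc over the 10 total RNA libraries was compared with that of 7744 genes by the root mean square difference of centred log2 CPM. The nearest were Fgd6 (0.151), Clint1 (0.151), 4930556M19Rik (0.155), Cept1 (0.161) and Ercc5 (0.163). Of the other Nrf2 genes, Gclm (0.272) and Gsr (0.318) were nearest but varied too little between libraries to be ranked, and Nfe2l2 ranked 696 at 0.331. This is a description in which every gene carries the depth and scaling of the same libraries, and TMM factors differed between the LNAs.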

How the data were processed

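Total and polysome RNA of 10 livers (5 per LNA) was sequenced as reverse-stranded paired reads of 100 bases. For each gene the authors deposited an estimated count, made with kallisto against Ensembl transcripts and summed to genes with tximport. Before that they trimmed reads at a Phred quality of 15 with fastp and removed those aligned to rRNA with bowtie (Bowtie2 in the submitters' processing notes). The build in the submitters' processing notes is GRCm38. Because kallisto divides reads among compatible transcripts, counts of paralogs and overlapping genes are uncertain, and whether strand was used is not given in the sources used here.

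Counts were rounded, filtered at a CPM above 0.5 in at least 4 libraries of a fit, normalized by TMM and fitted in edgeR 4.0.16 (R 4.3.3), whose quasi-likelihood F-test was used with Benjamini-Hochberg adjustment over all genes tested. A gene was called at an FDR under 0.05 in either direction. Fold changes come from the fit of each comparison (10 libraries, or 20 for the interaction). The study left out 1 sample per group without naming it, so all 10 mice were used. The study itself reported more genes as changed between the LNAs, in both RNAs, than the fits of 10 mice called. Without mice 9 and 10 the fits called 76 genes higher and 21 lower in total RNA, and 27 and 4 in polysome RNA. These numbers are nearer those of the study, which also asked for a log2 fold change of 0.5 for higher genes. Mice 9 and 10 lay farthest from their groups in total RNA. In polysome RNA mouse 11 lay farther from its group than mouse 10 (root mean square log2 distances of 0.549 and 0.519). Symbols matched 51903 of 53028 identifiers.

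The 10 genes and the lists were chosen with earlier results of these data known. All 10 genes are named. From each list at most 2 called genes per direction and comparison are named, by smallest FDR, and the 5 genes nearest Gclc among those with a mean CPM above 1 and an SD of at least the SD of Gclc divided by 2.

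The same mouse gave both RNAs, so the mouse number pairs them. Deviations of a mouse's total and polysome libraries from their group means correlated at r = 0.146 to 0.694, and 9 of 10 mice correlated best with themselves (mouse 6 did not). The fits without the block are reported first, as designed. Different mice received each LNA, so the comparisons between LNAs have no pairs. In those comparisons the p-values reflect the spread between 5 mice per group. The fits of polysome against total RNA and of the interaction without the block treat both libraries of a mouse as independent.

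Alternatives were limma-voom (limma 3.58.1), DESeq2 1.42.0, its size factors, library totals, no filter, a CPM above 1 in every library, mitochondrial genes left out, the study's fold thresholds, 8 mice, each mouse left out, 1 fit of 20 libraries and the mouse block. The pipeline was tested on simulated data, in which only genes with a mean CPM above 1 were changed and the libraries were drawn independently. More genes were changed there than the fits between the LNAs called, so the shares that follow may be higher than in these data. Of genes changed 1.5-fold, 26.8% were called in total RNA between the LNAs, 4.55% in polysome RNA and 7.69% in the interaction. Of genes changed 2-fold, 85.7%, 53.4% and 40.3% were called. Hence 0 calls between the LNAs do not show that differences of about 1.5-fold are absent.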

Additional observations from a re-analysis of the deposited data

Results flagged for a closer look

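In each group of 5 mice the highest and lowest value were compared with the rest by Dixon's test (critical value 0.71), for the CPM of the 10 genes in 4 groups and for their polysome to total ratios in 2. Of 60 such tests 6 were past the limit, where chance gives about 1 in 20, or 3. Hmox1 stood out in GFP LNA mouse 9, at 32.1 CPM in total RNA (next highest 12.4) and 27.2 CPM in polysome RNA (next 9.80). GFP LNA mouse 2 was far above its group for Nqo1 in total RNA, at 13.2 CPM (next 6.59), for Gclm in polysome RNA, at 131 CPM (next 97.6), and for the log2 polysome to total ratio of Srxn1, at 0.75 (next 0.29). The Nqo1 ratio of SNORA73 LNA mouse 11 was lowest by far, at -1.33 (next -0.39), on 56 counts in polysome and 148 in total RNA.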

How the results depend on the processing

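Precision was limited by 5 mice per group and by the 8 to 87 counts of G6pdx and Abcc4. The 0 calls in polysome RNA and in the interaction held under every alternative run. In total RNA 1 gene (Gclc) was called with 8 mice, and leaving out single mice gave 0 to 1. Between polysome and total RNA, leaving out single mice gave 6 to 7 calls in GFP LNA mice (Nfe2l2 lost without mouse 8) and 3 to 5 in SNORA73 LNA mice (3 without mouse 4). With the study's fold threshold, Keap1 and Srxn1 were not called in GFP LNA mice. With the replicate block by mouse, 10 genes were called in GFP LNA mice, 9 in SNORA73 LNA mice and 0 in the interaction, and it changed no other call.

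Called genes over the whole table depended on the tool. In total RNA there were 4 with edgeR, 5 with limma-voom, 75 with DESeq2, 13 without the filter, 2 with library totals, 2 with a CPM above 1 in every library and 97 with 8 mice. In polysome RNA there were 2 with edgeR and 2 with limma-voom, 281 with DESeq2, 72 without the filter, 31 with a CPM above 1, 317 in 1 fit of 20 libraries, 0 with library totals and 31 with 8 mice. Leaving out GFP LNA mouse 9 gave 59 in total RNA and 17 in polysome RNA. In the interaction there were 1, 0 and 7 by edgeR, limma-voom and DESeq2. The cause was not tested.

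Directions changed for uncalled differences only. With library totals, Keap1 (-0.020) and Abcc4 (-0.013) in total RNA and G6pdx (-0.14) in polysome RNA changed sign. G6pdx in polysome RNA was also -0.0092 without the filter and -0.11 with 8 mice. Abcc4 with limma-voom was -0.046 in polysome RNA and -0.084 in the interaction, and with 8 mice the interaction of Nfe2l2 was 0.064 and of Gclm 0.032. Leaving out single mice, the ranges that crossed 0 were, in total RNA, G6pdx -0.24 to 0.14, Hmox1 -0.59 to 0.16 and Abcc4 -0.014 to 0.31. In polysome RNA they were G6pdx -0.18 to 0.20, Hmox1 -0.61 to 0.052, Gsr -0.13 to 0.0050 and Abcc4 -0.062 to 0.39. In the interaction they were G6pdx -0.038 to 0.24, Abcc4 -0.19 to 0.29, Gclm -0.18 to 0.077, Srxn1 -0.15 to 0.013, Gclc -0.12 to 0.11, Nfe2l2 -0.23 to 0.0037, Nqo1 -0.31 to 0.026 and Gsr -0.031 to 0.097.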

Other observations

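The glutathione S-transferases, which conjugate glutathione to reactive compounds and include Nrf2 targets, had the lowest median fold change between the LNAs of the 10 related lists. In polysome RNA it was -0.45 on the log2 scale over 10 genes (range -1.28 to 0.17), against -0.011 for all genes, and in total RNA -0.28 (range -0.99 to 0.61). None of the 10 passed the edgeR test, 4 had an unadjusted p under 0.05 in polysome RNA (13.4% of all genes) and 2 in total RNA (8.65% of all genes), and counts of these closely related copies are uncertain. The list was picked for this median after its values were seen.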
